A study of Homo sapiens with 2 samples.

Results

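The heat shock protein and DNAJ families are the molecular chaperones that fold, refold and sort proteins. Members here were the 64 genes, of 28038 genes listed, whose symbol begins with HSPA, HSPB, HSPD, HSPE, HSPH, HSP90, DNAJA, DNAJB or DNAJC in its standard numbered form. They comprised 23 HSP genes and 41 DNAJ genes. Both cultures carry the label OVCAR-3, an established human ovarian carcinoma line. One had received an empty viral vector and is called OVCAR3-NC, and the other, called OVCAR3-OE, overexpressed IGF2BP3, a protein that binds RNA at m6A marks. Neither the overexpression vector nor the number of clones is given in the sources used here. Poly(A) RNA of 1 culture per group was sequenced, so every difference is between 2 libraries, intervals cover counting error only, and no p-value was computed.

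Background on these genes follows. HSP70 proteins bind short hydrophobic stretches of unfolded clients in a cycle driven by ATP. J proteins, the products of the DNAJ genes, deliver clients to HSP70 and stimulate its ATPase through the J domain, and HSP110 proteins exchange the bound nucleotide. HSP90 proteins act later on kinases, steroid receptors and other nearly folded clients, HSP60 and HSP10 form the folding chamber of the mitochondrion, and the small heat shock proteins hold unfolded clients without ATP. The cytosol, the endoplasmic reticulum (ER) and the mitochondrion each have HSP70 and J proteins of their own. Many cytosolic members are induced on heat by HSF1 through heat shock elements, and ER members by the unfolded protein response through ER stress elements.

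The promoters that carry these elements are shown first because these elements are the best-known control sequences of the families. The searched heat shock element was the triplets GAA, TTC and GAA with 2 bases of any kind between neighbours, on either strand. It was sought in windows of RefSeq on GRCh38.p14, each running from 250 bases before to 50 bases after a gene start. Of 57 members with a window, 7 held it (12.3%), against 0.608% of all 27305 genes with a window. Matches before the start are given 5′ to 3′ on the gene's strand, with the match in capitals; DNAJA1 held its only match after the start, and that one is not printed.
HSP90AB1 (chr6:44247773-44247795, plus strand): gcaggTTCTGGAAGATTCatggg
HSP90AB1 (chr6:44247826-44247848, plus strand): gattgTTCTGGAAGCTTCtggat
HSP90AA1 (chr14:102087115-102087137, minus strand): ggttcTTCCGGAAGGTTCgggag
HSPA8 (chr11:123062349-123062371, minus strand): agcttGAAAGTTCCAGAAcgctg
HSPA8 (chr11:123062174-123062196, minus strand): gccccTTCTGGAAGGTTCtaaga
HSPA6 (chr1:161524461-161524483, plus strand): aaaggTTCGCGAAAGTTCgcggc
HSPD1 (chr2:197500063-197500090, minus strand): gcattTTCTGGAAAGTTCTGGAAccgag
DNAJB6 (chr7:157336868-157336890, plus strand): gccgaGAACCTTCGCGAAggtgg

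The HSPD1 capitals cover 2 overlapping matches, one on each strand. The 7 members with a match had a median level of 293 FPKM (counts per kilobase of gene length, scaled to the size of the library, as deposited) in each library. The 40 measured members without one had a median of 8.56 in OVCAR3-NC and 8.77 in OVCAR3-OE. The level of HSPA6, at 0.659 and 0.822 FPKM, was far below that of the other 6 holders. Of the holders, 4 were above 0 in log2 ratio between the libraries, with a median of 0.01, and 22 of the 40 others were, with a median of 0.05. Holders thus had the higher median level, and both sets had a median log2 ratio close to 0.

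The ER stress element, CCAAT and CCACG with 9 bases of any kind between them, on either strand, was held by 2 of the 57 members and by 0.0916% of all genes. Both are ER chaperones, HSPA5 and HSP90B1.
HSPA5 (chr9:125241386-125241414, minus strand): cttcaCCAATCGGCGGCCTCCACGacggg
HSP90B1 (chr12:103930211-103930239, plus strand): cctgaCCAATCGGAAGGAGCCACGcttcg
HSP90B1 (chr12:103930316-103930344, plus strand): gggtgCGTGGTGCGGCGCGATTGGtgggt

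HSPA5 and HSP90B1 had the highest levels of the ER group. A match is a match of letters, and a window without one says only that those letters are not in it.

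For the libraries as a whole, the listed counts summed to 43190215 in OVCAR3-NC and 48017861 in OVCAR3-OE. IGF2BP3 itself was at 67.9 TMM-scaled CPM (counts relative to library size) in OVCAR3-NC and 133 in OVCAR3-OE, a ratio of 1.96 (95% counting interval 1.88 to 2.05). Among 6 epithelial markers, KRT18 was at 103 and 102 CPM, and each of the 4 others that had a row stayed below 10 CPM, CDH1 having 2 counts in either library. Of 6 markers of ovarian serous carcinoma, PAX8 and WFDC2 had a row, with at most 32 counts in either library. Among markers of other cells, VIM was at 2175 and 2149 CPM, and the other 5 of 6 listed, of fibroblasts, endothelium and leukocytes, were below 10 CPM. The low epithelial and serous markers put the label OVCAR-3 in doubt, so the libraries are called here by their labels. Some usually abundant genes, such as CCT8 with 3 and 2 counts, were also listed at almost no counts. Low marker counts alone therefore do not settle which line this is, and their cause was not tested.

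The chaperone families were abundant and nearly alike in the 2 libraries. They held 2.31% of all counts in OVCAR3-NC and 2.28% in OVCAR3-OE. Of the 64 members, 51 had at least 50 counts over both libraries and are called measured. Among them 1 member, the mitochondrial J protein DNAJA3, was at least 1.5-fold different on the scale of CPM plus 1, which is 1.96% of the measured members against 1.66% of all 14157 measured genes (1.02% higher and 0.643% lower). At 1.2-fold, with the further demand that the counting interval leave out 1-fold, 2 members were different (3.92%), DNAJA3 higher and DNAJC22 lower, against 11.8% of all measured genes (6.8% higher and 5.02% lower). The first share is 1 gene and close to that of all genes, and the second is below it.

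The other 50 measured members had ratios between 0.768 and 1.26, and 37 of them (74.0%) lay within 1.1-fold on the scale of CPM plus 1, where 62.8% of all measured genes did. The median log2 ratio, overexpression over control, was 0.05 over the 51 measured members, with 27 above 0 and 24 below. Over all measured genes the median was 0.00, with 51.1% above 0. The interval left out 1-fold for 32 of the 51 members, 18 higher and 14 lower, against 41.4% of all measured genes. With halved counts, which allow for read pairs counted as 2 reads, it did so for 21 members, against 26.8% of all measured genes. The members whose interval then took in 1-fold were HSPH1, HSPA14, HSPB8, DNAJB5, DNAJB12, DNAJC1, DNAJC3, DNAJC5, DNAJC7, DNAJC10 and DNAJC22. The interval narrows as counts rise, and the members' median level was 9.79 FPKM in OVCAR3-NC, against 4.14 over all measured genes. With no replicate culture, such intervals do not say whether cultures of the same kind would differ as much.

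**Figure D1:**
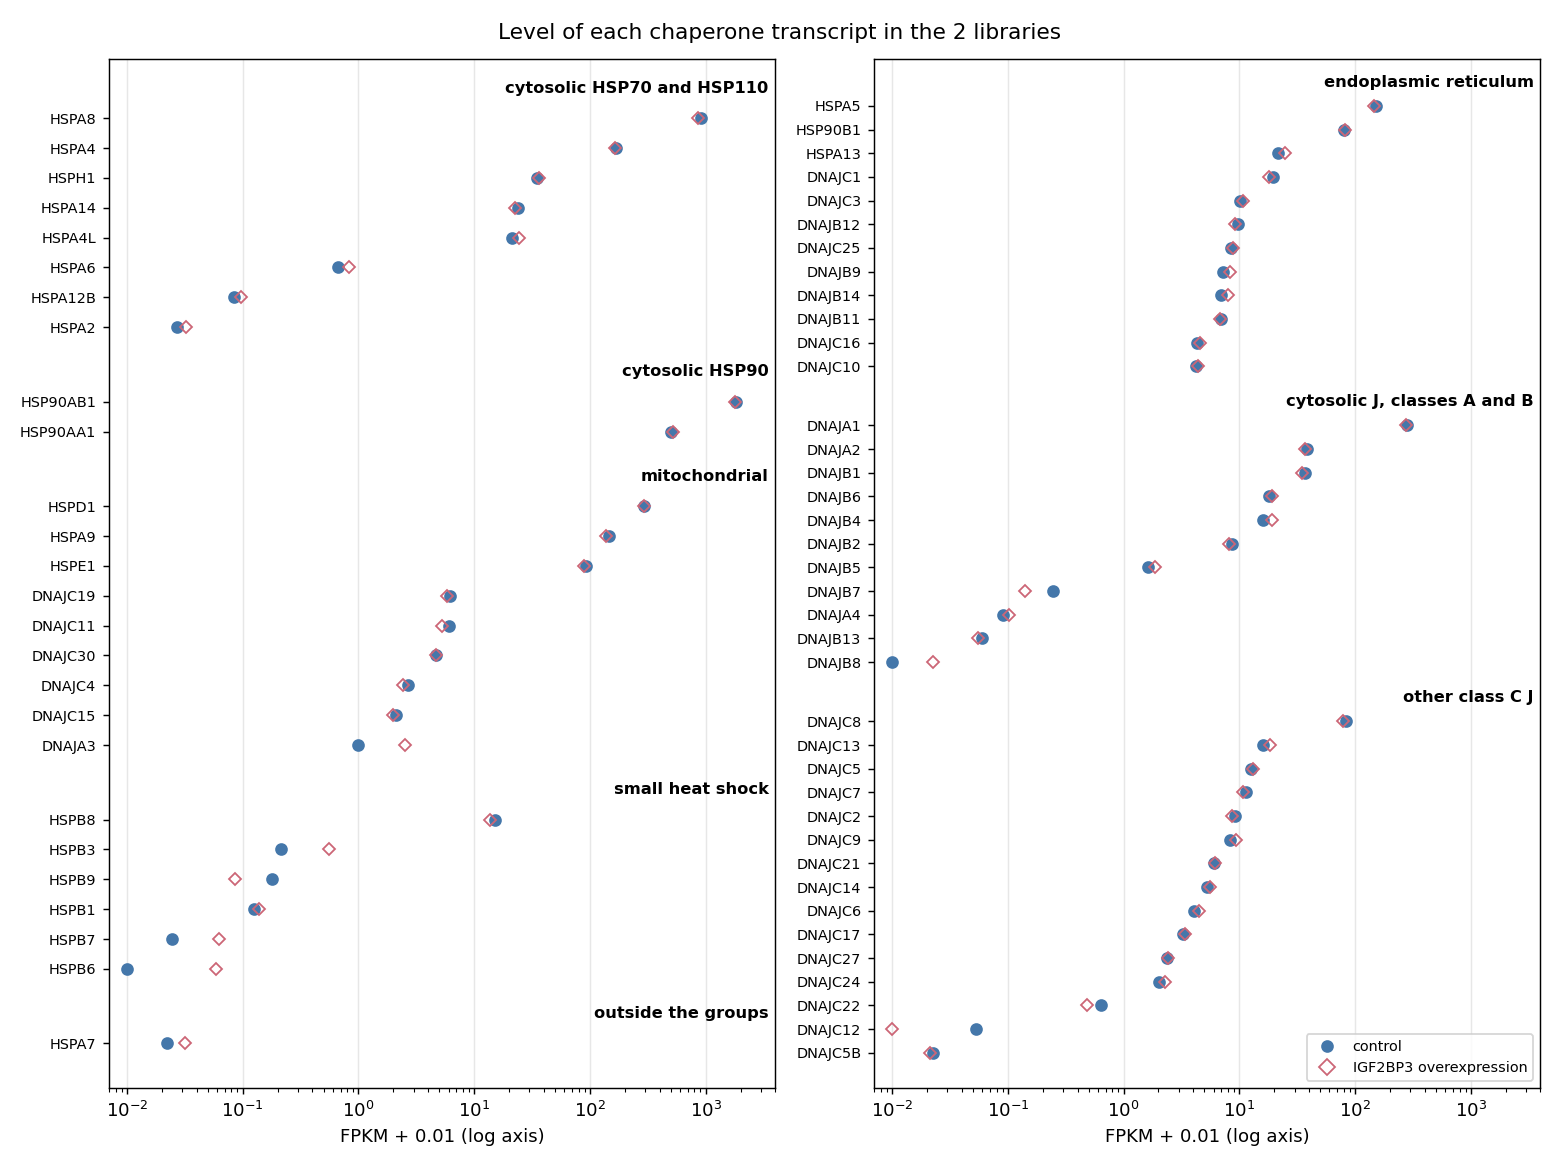
Level of all 64 members in OVCAR3-NC (filled circles) and OVCAR3-OE (open diamonds), as FPKM plus 0.01 on a log axis, grouped by compartment and class. The levels span from HSP90AB1 at 1829 and 1799 FPKM down to members listed at 0, and most pairs of symbols overlap.

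Cytosolic HSP90 took the largest part of the families' FPKM, 47.0% in OVCAR3-NC and 47.6% in OVCAR3-OE. Such shares cover listed members only, without HSPA1A and HSPA1B, and rest on the gene lengths behind FPKM. Of all listed counts in OVCAR3-NC, uncorrected for length, cytosolic HSP90 held 0.802% and cytosolic HSP70 and HSP110 0.588%. The mitochondrial group held 0.398% of them and the ER group 0.263%. HSP90AB1 (ENSG00000096384; GRCh38 chromosome 6, 44246166 to 44253888, plus strand), the constitutive cytosolic HSP90, had 1829 FPKM in OVCAR3-NC and 1799 in OVCAR3-OE, the highest level of any member in each. Its ratio was 0.990 (0.984 to 0.995). HSP90AA1 (ENSG00000080824; chromosome 14, 102080738 to 102139699, minus strand), the inducible form, had 504 and 520 FPKM, a ratio of 1.04 (1.03 to 1.05). HSP90AB1 was thus 3.63 times as high per length as HSP90AA1 in OVCAR3-NC and 3.46 times in OVCAR3-OE. Both genes share letters with processed copies: 35.7% of the 31-base words of HSP90AB1 and 29% of those of HSP90AA1 occur in another annotated gene. How the counting treated reads that fit both is not given, so the split between gene and copy is uncertain. The 3 listed copies of HSP90AB1 held 0.570% and 0.637% of its counts, and the 3 of HSP90AA1 1.09% and 1.14%.

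The cytosolic HSP70 and HSP110 group had 8 listed members and 23.4% of the families' FPKM in OVCAR3-NC. HSPA8 (ENSG00000109971; chromosome 11, 123057489 to 123063230, minus strand), the constitutive HSP70, had 915 FPKM in OVCAR3-NC and 859 in OVCAR3-OE, a ratio of 0.946 (0.940 to 0.952). Its 10 listed processed copies held 0.0559% and 0.0530% of its counts, although 21.5% of its words occur in another gene. HSPA4, an HSP110-type exchange factor, had 167 and 164 FPKM, a ratio of 0.988 (0.974 to 1.002). The related HSPH1, at 35.2 and 36.1 FPKM, was 1.03-fold higher (1.01 to 1.06), and HSPA4L, the third of this type, went from 21.3 to 24.5 FPKM, 1.15-fold higher (1.13 to 1.18). HSPA4 therefore stood 7.84 times above HSPA4L in OVCAR3-NC and 6.70 times in OVCAR3-OE. HSPA14, a ribosome-bound HSP70, had the lowest log2 ratio of the group, at 24.0 and 22.4 FPKM and a ratio of 0.936 (0.887 to 0.989).

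The other cytosolic HSP70 genes were at or near silence. HSPA6, a strictly heat-induced form, had 67 counts in OVCAR3-NC and 93 in OVCAR3-OE, a ratio of 1.26 whose interval of 0.908 to 1.75 includes 1-fold. It had the highest log2 ratio of the group, 0.21, with HSPA4L at the same rounded value. Of its words 56.7% also occur in another gene, mainly HSPA7, so the split between them is uncertain. HSPA7, annotated as a pseudogene of HSPA6 and left outside the groups, had 1 and 2 counts. HSPA2, the HSP70 of male germ cells, had 4 and 6 counts, and HSPA12B, a distant relative, 10 and 13. HSPA1A, HSPA1B, HSPA1L and HSPA12A were not among the rows of the table and are not analysed here. Over the 6 measured members of the group the median log2 ratio was 0.01, with 3 above 0, and it was -0.02 with a count minimum of 200.

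In the ER group 12 of 12 listed members were measured. DNAJC18, also set for this group, was not among the rows and is not analysed here. HSPA5 (ENSG00000044574; chromosome 9, 125234853 to 125241330, minus strand), the ER HSP70 also called BiP, had 152 FPKM in OVCAR3-NC and 145 in OVCAR3-OE, a ratio of 0.957 (0.945 to 0.970). HSP90B1 (ENSG00000166598; chromosome 12, 103930107 to 103953645, plus strand), the ER HSP90 also called GRP94, had 80.0 and 82.4 FPKM, a ratio of 1.04 (1.02 to 1.05). The 2 leading ER chaperones thus lay on opposite sides of 1-fold, each by less than 1.1-fold. HSPA13, a microsomal HSP70, went from 21.7 to 24.6 FPKM, 1.14-fold higher (1.09 to 1.19).

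The ER J proteins were each at 19.4 FPKM or less. DNAJB14, a membrane J protein, had the highest log2 ratio of the ER group, going from 6.96 to 8.04 FPKM, 1.16-fold higher (1.12 to 1.21). DNAJB9, which recruits HSPA5 to the stress sensor IRE1, went from 7.27 to 8.36 FPKM, also 1.16-fold higher (1.05 to 1.27). DNAJC3, an inhibitor of the stress kinase PERK, had 10.2 and 10.8 FPKM, a ratio of 1.08 (1.02 to 1.14). The lowest log2 ratio was that of DNAJB12, a partner of HSP70 in ER-associated degradation, at 9.79 and 9.11 FPKM and a ratio of 0.936 (0.884 to 0.991). DNAJB11, the soluble J partner of HSPA5, had 6.95 and 6.84 FPKM, and its interval of 0.940 to 1.04 includes 1-fold. The disulphide reductase DNAJC10 had 4.25 and 4.40 FPKM, DNAJC16 4.29 and 4.54, DNAJC25 8.46 and 8.87, and the ribosome-associated DNAJC1 19.4 and 18.1. In all 8 of 12 ER members were above 0, with a median log2 ratio of 0.07 and none past 1.2-fold. Of all measured genes 51.1% were above 0. The counting interval lay above 1-fold for 6 of the 12.

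In the mitochondrial group 7 of 9 listed members were below 0, with a median log2 ratio of -0.06, or -0.07 without DNAJA3. Of all 14157 measured genes, 6916 were below 0. The counting interval lay below 1-fold for 2 of the 7, HSPA9 and DNAJC11. DNAJC28, also set for the group, was not among the rows and is not analysed here. HSPD1 (ENSG00000144381), the HSP60 chamber, had 293 FPKM in both libraries, a ratio of 1.008 whose interval, 0.9996 to 1.017, includes 1-fold. HSPE1 (ENSG00000115541), the HSP10 lid, had 92.0 and 89.4 FPKM, a ratio of 0.978 (0.947 to 1.01). HSPD1 and HSPE1 lie head to head on chromosome 2, with gene bodies at 197486581 to 197516737 on the minus strand and 197499994 to 197503457 on the plus strand. RefSeq places starts of HSPD1 at 197500274 and 197499840, which lie 105 and 539 bases from that of HSPE1, at 197500379. The HSPD1 element printed above falls between 197499840 and the HSPE1 start. The start at 197500274 lies within the annotated extent of HSPE1 on the opposite strand, and 27.2% of the words of HSPE1 occur in another gene, mainly HSPD1. The strand setting of the counting is not given in the sources used here. HSPD1 was 3.18 times as high per length as HSPE1 in OVCAR3-NC and 3.28 times in OVCAR3-OE. The 11 listed processed copies of HSPE1 held 5.51% and 5.57% of its counts.

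HSPA9, the mitochondrial HSP70 or mortalin, had 147 and 139 FPKM, a ratio of 0.951 (0.941 to 0.962). DNAJC19 and DNAJC15, J proteins of the import motor at the inner membrane, had 6.11 and 5.80, and 2.11 and 1.97 FPKM. DNAJC11, found with the cristae-organising complex, went from 6.01 to 5.23 FPKM, the lowest log2 ratio of the group, with a ratio of 0.875 (0.833 to 0.920). Of its words 27% occur in another gene, mainly THAP3. DNAJC30 had 4.69 and 4.62 FPKM and DNAJC4 2.66 and 2.43.

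DNAJA3 (ENSG00000103423; chromosome 16, 4425805 to 4456775, plus strand), the J protein that works with HSPA9 in the matrix and is also called TID1, stood apart. It had 302 counts, 0.989 FPKM, in OVCAR3-NC and 856 counts, 2.52 FPKM, in OVCAR3-OE. OVCAR3-NC is thus the low library for this gene. By FPKM it was the lowest mitochondrial member there, and in OVCAR3-OE it stood above DNAJC4 and DNAJC15. Per kilobase of the longest coding transcript, DNAJC15 was lower than DNAJA3 in OVCAR3-NC, at 2.15 against 2.52. In OVCAR3-OE DNAJA3, at 6.47 on that scale, also stood above DNAJC30, at 4.73. The ratio came to 2.57 (2.25 to 2.94), halved counts widened the interval to 2.13 to 3.11, and the log2 ratio of CPM plus 1 was 1.24. With CPM plus 5 in its place it was 0.93, and with FPKM plus 1 it was 0.82, past 1.5-fold in each. For DNAJA3 the authors' deposited table lists 1.35 as the log2 fold change.

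Some neighbours of DNAJA3 on chromosome 16 differed too. HMOX2, a heme oxygenase whose start lies 48.9 kb away, went from 34 to 869 counts, a log2 ratio of 3.42. NMRAL1, 70.0 kb away, went from 104 to 30 counts, a log2 ratio of -1.06, and CDIP1, 113 kb away, from 296 to 124, a log2 ratio of -1.13. These 3 were the only ones of 30 measured neighbours within 1 Mb of the DNAJA3 start that were at least 1.5-fold different, and they differ in opposite directions. The median of the 30 was -0.05. Among the 51 measured members, 5 had any 1.5-fold different gene within that distance, and DNAJA3 alone had more than 1. Of the words of DNAJA3, 7.24% occur in another annotated gene. What part the neighbourhood has in the DNAJA3 difference was not tested.

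**Figure D2:**
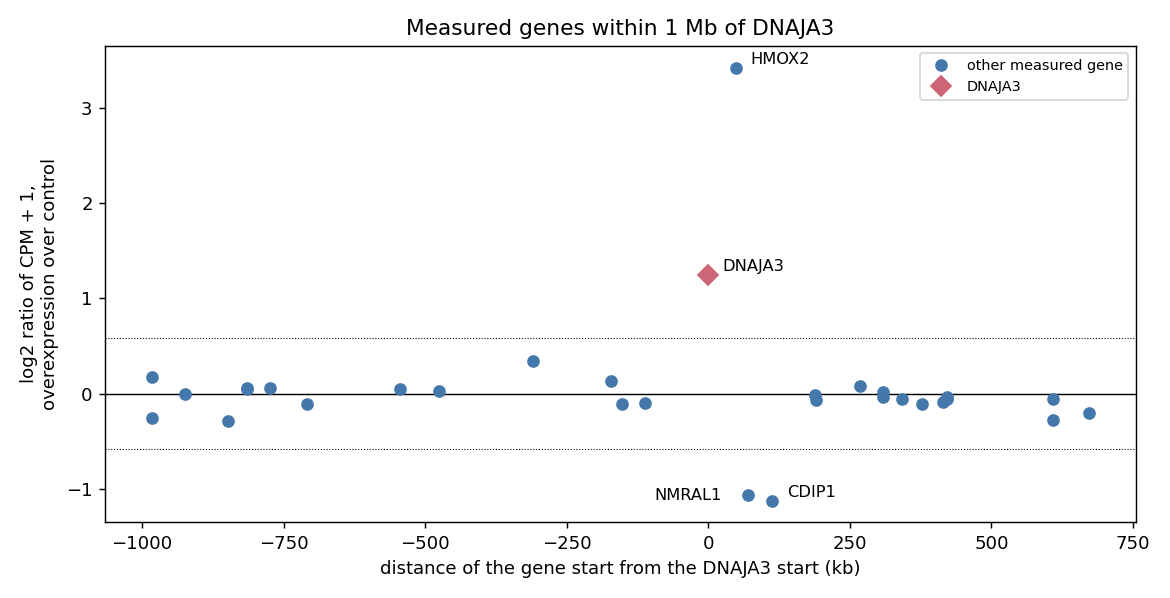
Log2 ratio (OVCAR3-OE over OVCAR3-NC, CPM plus 1) of DNAJA3 (diamond) and the 30 other measured genes within 1 Mb (circles), against the distance of each gene start from that of DNAJA3 in kb; dotted lines mark 1.5-fold. HMOX2 at 3.42, DNAJA3 at 1.24, NMRAL1 at -1.06 and CDIP1 at -1.13 lie beyond the lines within 113 kb, and the other genes between them.

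Of the small heat shock proteins, 1 of 6 listed members was measured. HSPB8 (ENSG00000152137; chromosome 12, 119178642 to 119221131, plus strand), which works with BAG3 in selective autophagy, had 2323 counts, 15.0 FPKM, in OVCAR3-NC and 2368 counts, 13.8 FPKM, in OVCAR3-OE. Its ratio was 0.923 (0.871 to 0.978), and the interval from halved counts, 0.850 to 1.001, includes 1-fold. HSPB1 (ENSG00000106211; chromosome 7, 76302544 to 76304295, plus strand), the widely expressed HSP27, had 8 counts in OVCAR3-NC and 10 in OVCAR3-OE, or 0.114 and 0.128 FPKM. The ratio of HSPB1, 1.13, had an interval of 0.402 to 3.30, so no difference was detectable at this depth. Of the words of HSPB1, 11.2% occur in another gene, mainly the pseudogene HSPB1P1, and the 1 copy with a row, HSPB1P2, had 2 counts in each library. Whether shared letters lowered the HSPB1 count was not tested.

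The other small members are known mainly from muscle (HSPB3, HSPB6, HSPB7) and testis (HSPB9). HSPB3 had 6 counts in OVCAR3-NC and 18 in OVCAR3-OE, a ratio of 2.72 (1.03 to 8.36) whose interval from halved counts, 0.678 to 15.6, includes 1-fold. HSPB7 had 2 and 8 counts and HSPB9 4 and 2. HSPB6 had 0 counts in OVCAR3-NC, which allows up to 3 counts or 0.0692 CPM, and 4 in OVCAR3-OE. CRYAB, the alpha-B crystallin of the same family under another symbol, had 4 and 2 counts. HSPB2 and HSPB11 were not among the rows and are not analysed here.

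Among the cytosolic J proteins of classes A and B, 8 of 11 listed members were measured. DNAJA1 (ENSG00000086061; chromosome 9, 33025211 to 33039907, plus strand), the main class A partner of HSPA8, had 280 FPKM in OVCAR3-NC and 275 in OVCAR3-OE, a ratio of 0.989 (0.974 to 1.004). HSPA8 stood 3.27 and 3.13 times above it. DNAJA2, of the same class, had 38.5 and 36.6 FPKM, a ratio of 0.956 (0.928 to 0.986). By FPKM the class B members were below DNAJA1 and DNAJA2. DNAJB1, the HSP40 that disaggregates with HSPA8 and HSPH1, had 36.6 and 35.0 FPKM, a ratio of 0.962 (0.939 to 0.985). DNAJB6, a suppressor of polyglutamine aggregation, had 18.1 and 19.2 FPKM, a ratio of 1.07 (1.04 to 1.09). Per kilobase of the longest coding transcript, DNAJB1 (132 in OVCAR3-NC, 127 in OVCAR3-OE) and DNAJB6 (107 and 114) stood above DNAJA2 (60.9 and 58.2).

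DNAJB4, a relative of DNAJB1, had the highest log2 ratio of these, 0.26, going from 15.9 to 19.0 FPKM. Its ratio of 1.2 (1.14 to 1.26) was just short of 1.2-fold on the scale of CPM plus 1. It passed that fold with a pseudocount of 0.1 CPM or with DESeq2 size factors. DNAJB2, the neuronal ubiquitin-binding J protein, had the lowest, at 8.65 and 8.12 FPKM and a ratio of 0.945 (0.890 to 1.002). DNAJB5 had 1.63 and 1.87 FPKM, and DNAJA4 just passed the minimum with 23 and 29 counts. DNAJB7 with 26 and 16 counts, DNAJB13 with 6 and 6, and DNAJB8 with 0 and 2 did not; these are testis genes. DNAJB3 is not analysed here. The median log2 ratio of the 8 was 0.03, with 4 above 0; it was -0.01 with FPKM plus 1 and -0.02 with another or no count minimum.

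The remaining class C J proteins carry out specialised tasks, and 13 of 15 were measured. By FPKM DNAJC8, a factor linked to splicing, was by far the highest, with 83.3 in OVCAR3-NC and 78.9 in OVCAR3-OE, a ratio of 0.954 (0.928 to 0.980). DNAJC13, the endosomal J protein RME-8, came next with 15.9 and 18.3 FPKM and had the highest log2 ratio of the group, 0.21, for a ratio of 1.16 (1.12 to 1.19). DNAJC5, the cysteine string protein of vesicles, had 12.5 and 13.2 FPKM, and DNAJC7, a partner that bridges HSP70 and HSP90, 11.3 and 10.8. Per kilobase of the longest coding transcript, DNAJC7 was above DNAJC13, at 72.2 against 19.8 in OVCAR3-NC, and DNAJC8 was at 136. DNAJC2, of the ribosome-associated complex with HSPA14, had 9.09 and 8.66, and the histone chaperone DNAJC9 8.30 and 9.34. DNAJC6, the clathrin-uncoating auxilin, had 4.08 and 4.52.

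DNAJC22 had the lowest log2 ratio of any measured member, -0.28. It went from 139 to 118 counts, 0.626 to 0.478 FPKM, a ratio of 0.768 (0.596 to 0.989). The interval from halved counts, 0.534 to 1.1, includes 1-fold, and DNAJC22 was no longer 1.2-fold different on the scales of FPKM plus 1 and CPM plus 5. DNAJC21, which acts in ribosome assembly, had 6.0 and 6.20 FPKM, DNAJC14 5.26 and 5.59, DNAJC17 3.23 and 3.39, DNAJC27 2.35 and 2.43, and DNAJC24, of diphthamide synthesis, 2.0 and 2.29. More than 1 in 2 words of DNAJC14 (58.3%) occur in another annotated gene. DNAJC12 had 4 and 0 counts and DNAJC5B 2 in each. The 13 measured members had a median log2 ratio of 0.08, with 9 above 0, where 51.1% of all measured genes were. The counting interval lay above 1-fold for 5 of the 13.

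**Figure D3:**
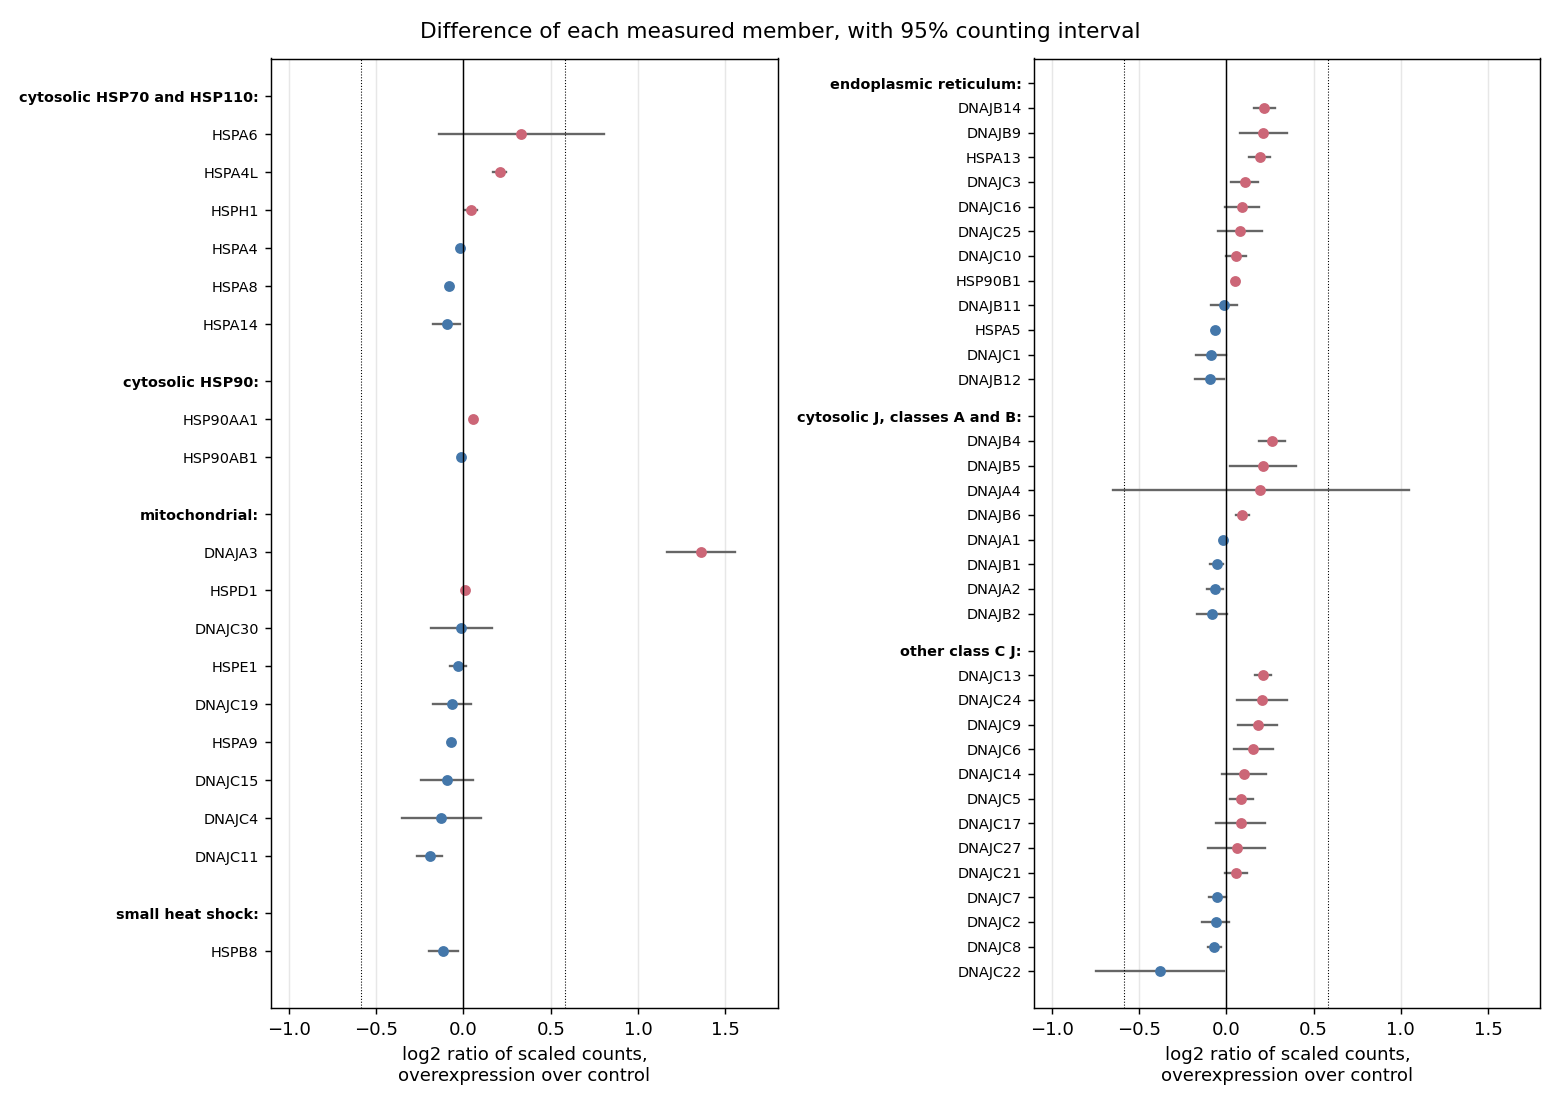
Log2 ratio of TMM-scaled counts, overexpression over control, of the 51 measured members by group (points, red above and blue below 1-fold) with 95% counting intervals (bars); the solid line is 1-fold and dotted lines 1.5-fold. DNAJA3 is the only point beyond a dotted line, and the widest intervals belong to DNAJA4, HSPA6 and DNAJC22, the members with the fewest counts.

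Across the compartments the sums barely differed between the libraries. The ER group held 6.68% of the families' FPKM in OVCAR3-NC and 6.79% in OVCAR3-OE, the mitochondrial group 11.2% in both, and the small heat shock group 0.313% and 0.300%. Cytosolic class A and B J proteins held 8.06% and 8.10%, and the other class C J proteins 3.31% and 3.37%. The summed CPM of a group in OVCAR3-OE was between 0.931 times (small heat shock) and 1.03 times (other class C) its value in OVCAR3-NC. Within one library HSPA8 stood 6.0 times above HSPA5 and 6.23 times above HSPA9 per length in OVCAR3-NC, and 5.93 and 6.19 times in OVCAR3-OE. By FPKM, HSPA5 was 1.04 times as high as HSPA9 in each library.

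The order of levels and the groups' shares of FPKM depend on the length behind FPKM. In the authors' table that length takes in far more than 1 transcript of some genes. It was 13092 bases for HSP90B1, whose longest coding transcript in GENCODE release 29 has 2858. Per kilobase of that transcript, HSP90B1 was above HSPA5 and the HSPA5 to HSP90B1 ratio went from 1.91 to 0.696 in OVCAR3-NC. HSPD1 likewise came to stand above HSP90AA1, while HSP90AB1 and HSPA8 remained first and second. HSP90AB1 was then 1.13 times as high as HSPA8 in OVCAR3-NC, against 2.0 times by FPKM, HSPD1 was 5.15 times as high as HSPE1, and HSPA8 stood 5.74 times above DNAJA1, 7.07 times above HSPA5 and 5.93 times above HSPA9. HSPA5 was then 0.839 times as high as HSPA9 in OVCAR3-NC and 0.844 times in OVCAR3-OE. Ratios of scaled counts between the libraries are computed without a gene length, unlike those of FPKM plus 1.

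Among the 51 measured members, Spearman's rho of the log2 ratio was 0.37 with the length of the longest annotated transcript, -0.31 with its GC content and -0.24 with the mean log2 FPKM. Over all measured genes these were 0.22, -0.28 and -0.01. The genes share both libraries and their scaling, so these are descriptions across genes and not across samples. HSPA4L, DNAJC13 and DNAJB14, each with a log2 ratio of 0.21 or 0.22, have longest coding transcripts of 10790, 7730 and 6075 bases. DNAJC10, with the longest of all members, 20129 bases, had a log2 ratio of 0.06. DNAJC15 and DNAJC21, at 7853 and 6208 bases, had log2 ratios of -0.09 and 0.06, and DNAJB4, at 2988 bases, one of 0.26. The part of length or GC content in the members' differences was not tested.

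Regulators and co-chaperones give the surroundings of the families. Of 57 partner genes chosen, 56 were listed and 50 measured, with a median log2 ratio of -0.02 and 21 above 0. None was 1.5-fold different. At 1.2-fold 3 were different (6%, against 11.8% of all measured genes), 2 higher, HSF4 among them, and CHORDC1 lower. HSF4, a heat shock factor best known in the lens, went from 136 to 237 counts, a ratio of 1.58 (1.27 to 1.96) and a log2 ratio of 0.52 on the scale of CPM plus 1. HSPBP1, an HSP70 exchange factor, was 1.13-fold higher (1.05 to 1.21). CHORDC1, an HSP90 co-chaperone, went from 1983 to 1479 counts, 4.14 to 2.78 FPKM, a ratio of 0.675 (0.631 to 0.723). The mitochondrial exchange factor GRPEL2, at 0.893 (0.851 to 0.936), and BAG1, at 0.894 (0.841 to 0.95), followed.

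Other HSP90 partners spanned a wide range of levels. STIP1, the HSP70 to HSP90 adaptor, had 205 and 202 FPKM, and PTGES3, or p23, 334 and 340. AHSA1, the ATPase activator, had 110 and 106, and CDC37, the kinase adaptor, 95.8 and 91.5. The immunophilin FKBP4, at 71.6 and 66.2 FPKM, had an interval of 0.910 to 0.95, and PPID, at 39.7 and 36.8, one of 0.894 to 0.973. TTC4 was at 0.219 and 0.227 FPKM. HSF2 had 19.5 and 20.1 FPKM, and HSF1 is not analysed here. The mitochondrial HSP90 TRAP1, at 17.6 and 16.1 FPKM, had a ratio of 0.923 (0.883 to 0.965). BAG3, the partner of HSPB8, had 44.2 and 41.7 FPKM, a ratio of 0.948 (0.913 to 0.985).

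**Figure D4:**
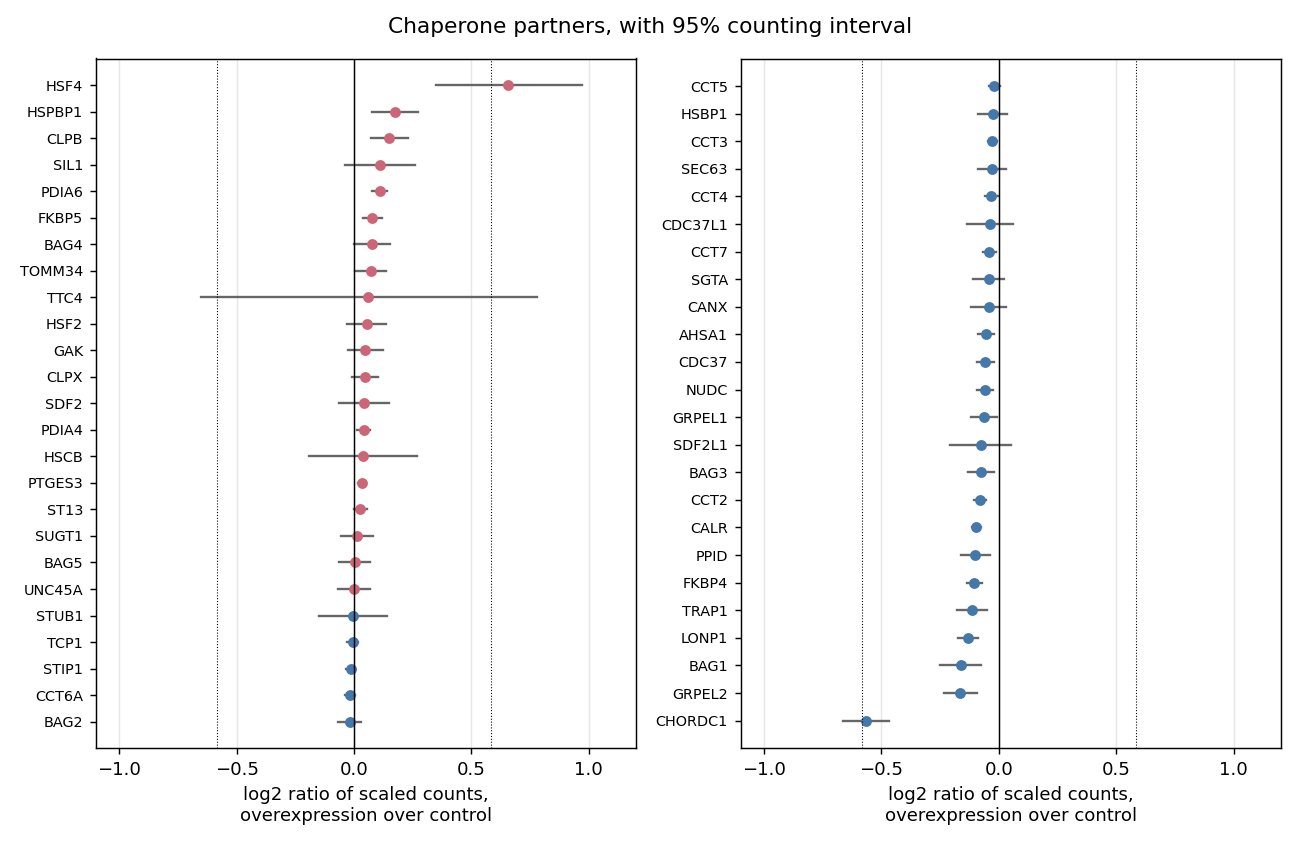
Log2 ratio of TMM-scaled counts, overexpression over control, of 49 of the 50 measured partner genes (points, highest first across both panels, red above and blue below 1-fold) with 95% counting intervals (bars); dotted lines mark 1.5-fold. HSF4 lies past the upper dotted line here and not on the scale of CPM plus 1, CHORDC1 lies short of the lower one, and all others plotted lie closer to 1-fold.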

How the data were processed

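The authors deposited 1 table for both libraries with whole-number counts per gene, FPKM and a log2 fold change. FPKM in the deposited file equals counts per kilobase of a gene length, scaled to the listed total, and that length came out whole within 0.01 in 99.99% of genes. Per the submitters' processing notes the build was GRCh38; aligner, counter, annotation and strand setting: not given in the sources used here. Per the labels, libraries were made from poly(A) RNA with dUTP. Even counts made up 64.1% and 63.3% of the counts from 1 to 20, so intervals were also computed from halved counts.

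Counts were scaled by TMM (edgeR 4.0.16, R 4.3.3). Log2 ratios are of CPM plus 1 for genes whose counts in the 2 libraries sum to 50 or more, and ratios of scaled counts carry exact 95% Clopper-Pearson intervals, which cover counting error only (Python 3.11.15, scipy 1.17.1). The 1.2-fold call also needs an interval on one side of 1-fold. The authors' deposited log2 fold changes were used only where named. With 1 culture per group no test was run. Depth is the listed total of each library, and 3 counts correspond to 0.0692 CPM in OVCAR3-NC and 0.0627 in OVCAR3-OE. Promoter windows are RefSeq's (GRCh38.p14), and gene positions, transcript lengths and shared 31-base words come from GENCODE release 29, in which all 64 members have a position.

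All members are accounted for. Values in full were set for the 2 highest levels and the highest and lowest log2 ratio of each group, each member called at 1.5-fold, members under 10 counts in both libraries, and the 3 highest and 3 lowest partners, of which 1 is not reported here. The members, groups and lists were chosen with earlier results of these data known. Alternatives were scaling by totals, DESeq2 1.42.0 size factors, FPKM plus 1, pseudocounts of 0.1 and 5 CPM, count minimums of 10, 200 and none, intervals from halved counts, and 3 added after the data were seen: the number of intervals beside 1-fold from halved counts, transcript length, and the mitochondrial median without DNAJA3. The calculation was tested on simulated data.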

Additional observations from a re-analysis of the deposited data

How the results depend on the processing

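The single member at least 1.5-fold different, DNAJA3, was called under every scaling, pseudocount and count minimum tried. Its log2 ratio, 1.24, was 0.93 with CPM plus 5 and 0.82 with FPKM plus 1, as a larger added constant shrinks the ratio of a low gene. Members 1.2-fold different numbered 2, 1 with FPKM plus 1 or with 5 CPM added, and 3 with DESeq2 size factors, 0.1 CPM added, a count minimum of 10 or none. The third was DNAJB4 with DESeq2 size factors or 0.1 CPM added. With a count minimum of 10 or none it was HSPB3, of 6 and 18 counts, whose interval from halved counts includes 1-fold. The median of the small heat shock proteins, -0.11 from HSPB8 alone, was 0.094 with a count minimum of 10 and 0.073 with none, which let in members of a few counts. Intervals that leave out 1-fold numbered 32 among the members (41.4% of all measured genes had one), and 21 from halved counts (26.8%). No measured member's log2 ratio changed sign under totals, DESeq2 size factors or FPKM plus 1. Before the constant is added, scaling by totals shifts log2 ratios by -0.0093 and DESeq2 size factors shift them by 0.0052. Members under about 50 counts, HSPB1 among them, are too shallow for a ratio. No paired analysis was possible because each group has 1 library and the labels give no replicate numbers.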

Other observations

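Several genes of the folding machinery, some of them usually abundant, were listed at almost no counts, a set named after its values were seen. CCT8, a subunit of the cytosolic chaperonin that folds actin and tubulin, had 3 counts in OVCAR3-NC and 2 in OVCAR3-OE, while the other 7 CCT subunits with a row lay between 117 and 225 FPKM in OVCAR3-NC. Those 7 were all below 0 in log2 ratio, with a median of -0.03, where 51.1% of all measured genes were above 0. TCP1 was nearest to 0, at -0.0052, and DESeq2 size factors shift log2 ratios by 0.0052. The counting interval lay below 1-fold for 4 of the 7, against 2628 of all 14157 measured genes. On either side of 1-fold it was 41.4% of all measured genes. Intervals from halved counts are not given for these 7. None of the 7 was 1.2-fold different, against 11.8% of all measured genes. HYOU1, the ER member of the HSP110 type, had 2 and 0 counts, although HSPA5 had 152 and 145 FPKM. BAG6, a chaperone of membrane proteins before insertion, had 3 and 10 counts, and DNLZ, which keeps mitochondrial HSPA9 soluble, 6 and 8. The cause of these low counts was not tested.

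Without DNAJA3, Spearman's rho of the members' log2 ratio was 0.38 with transcript length and -0.36 with GC content over 50 genes, a description of 2 libraries.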
